A study of Mus musculus with 4 samples.

Results

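The Retnla Lyz1 cells described here are myeloid cells of the mouse mammary gland that carried at least 2 UMIs (unique transcript molecules) of Retnla and at least 2 of Lyz1, with at most 3 UMIs of the complement genes C1qa, C1qb and C1qc together and none of Cd3e, Cd3d, Cd3g, Cd79a, Ms4a1, Xcr1 or Clec9a. These limits were applied to cells with at least 500 UMIs, at least 300 detected genes and at most 10% mitochondrial UMIs. They kept 323 of 42781 cells: 166 of 21604 (0.768%, exact binomial 95% interval 0.656 to 0.894) in the library whose files are named for the earlier year (library A) and 157 of 21177 (0.741%, 0.630 to 0.866) in the later one (library B). The cells were chosen by their own transcripts, so their Retnla, Lyz1 and C1q levels are a description.

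Retnla encodes RELM-alpha, a small secreted protein that macrophages make under the type 2 cytokines interleukin 4 and interleukin 13. Lysozyme breaks bacterial cell walls, and mice have neighbouring genes for it: Lyz2, the form of macrophages, monocytes and neutrophils, and Lyz1, known best from Paneth cells of the gut. The mammary gland holds several kinds of macrophage, monocyte and dendritic cell, and C1q is a common mark of its resident macrophages.

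Both libraries were made from pooled CD45+ cells, that is, leukocytes sorted by a surface protein they share, whose sample of origin is given by a hash tag (an antibody carrying a DNA barcode). The library A sheet of tags names Nulliparous, Gestation, Lactation and HT2, and the library B sheet Gestation, Lactation, Involution, Regression, Balb/c, GF and HT2 (it also names Nulliparous, whose tag had 1 count there), where nulliparous means before any pregnancy, and involution the shrinking of the gland once milk is no longer removed. HT2 is kept as a tag number, because sheets and titles differ on its name; the sheets call it Germ-free. The sources used here do not give strain (other than Balb/c), sex, age, days of gestation or lactation, how many animals a tag holds, or the reproductive stage behind the names Balb/c and GF. A single tag was called in 126 and 130 of the Retnla Lyz1 cells, 23 and 22 carried more than 1 tag, and 17 and 5 carried none. Gestation and Lactation thus have 1 sample in each library, and every other name is 1 sample or disputed.

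The libraries differed in depth, with a median of 1599 UMIs per cell in library A and 3049 in library B. The tag of the library B Lactation sample was weak, with 16368 counts in kept cells against 83785 to 343172 for the other tags of that library. The libraries shared 139 cell barcodes, none of them a Retnla Lyz1 cell. Scrublet called 7.83% and 6.87% of all cells doublets, against 3.61% and 3.18% of the Retnla Lyz1 cells. Cells left out of the class only for a T, B, Xcr1 or Clec9a UMI had 43.8% and 22.8%. The low share in the class was thus partly built in. T cells (at least 2 UMIs of Cd3e, Cd3d and Cd3g together) should lack Retnla and Lyz1. Of T cells, 4.80% had a Retnla UMI in library A and 25.6% in library B (median depths of 1826 and 3398 UMIs). A Lyz1 UMI was seen in 1.35% and 3.21%. Doublet calls made up 12.1% and 10.0% of all T cells. The part of free RNA and of doublets in these UMIs was not tested. At least 2 UMIs of both genes with C1q within the limit were seen in 0.462% and 0.468% of T cells, of which 43.3% and 38.5% were doublet calls.

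Within the Retnla Lyz1 cells most cells held the genes of the rule above its limits. The median cell held 46.5 Retnla UMIs in library A and 54 in library B, up to 301 and 683, which was 1.64% and 1.27% of a cell's transcripts at the median. Lyz1 had medians of 9 and 10 UMIs, and 19 cells in each library sat at the limit of 2. Retnla at 2 or 3 UMIs was rare, in 4 and 3 cells. The median total per cell was 3250.5 and 4931 UMIs.

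The lysozyme genes lie side by side on chromosome 10, Lyz2 at chr10:117277541-117282272 and Lyz1 at chr10:117287795-117292868, with 5522 bases between them. Retnla lies at chr16:48842609-48844461. The 250 bases before each annotated start are shown for the lysozyme pair because these cells carried both transcripts while the other gates below carried mostly Lyz2, and for Retnla because the rule rests on it. The sequences are from RefSeq (GRCm38.p6), 5′ to 3′ on the gene's strand, at chr10:117292869-117293118 (minus strand) for Lyz1, chr10:117282273-117282522 (minus strand) for Lyz2 and chr16:48842359-48842608 (plus strand) for Retnla. Capitals mark matches, on either strand, to ACTTCCT (the core of sites for PU.1 and other ETS factors), TTGCNNAA (C/EBP type) and TTCNNNNGAA (STAT6 type).
Lyz1: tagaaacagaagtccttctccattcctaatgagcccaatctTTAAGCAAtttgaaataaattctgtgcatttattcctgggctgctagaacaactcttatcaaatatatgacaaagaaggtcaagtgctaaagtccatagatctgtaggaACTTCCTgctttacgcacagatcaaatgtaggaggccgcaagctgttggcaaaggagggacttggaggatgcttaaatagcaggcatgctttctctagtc
Lyz2: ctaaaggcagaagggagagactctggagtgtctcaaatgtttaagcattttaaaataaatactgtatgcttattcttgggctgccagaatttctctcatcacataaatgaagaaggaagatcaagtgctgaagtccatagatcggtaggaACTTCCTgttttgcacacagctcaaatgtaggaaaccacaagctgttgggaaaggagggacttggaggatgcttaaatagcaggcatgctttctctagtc
Retnla: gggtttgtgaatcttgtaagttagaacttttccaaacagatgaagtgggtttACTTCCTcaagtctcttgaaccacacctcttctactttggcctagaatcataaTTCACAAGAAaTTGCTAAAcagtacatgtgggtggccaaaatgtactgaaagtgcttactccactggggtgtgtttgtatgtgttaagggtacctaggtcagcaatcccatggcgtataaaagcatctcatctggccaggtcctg
Lyz1 and Lyz2 were identical at 152 of 250 bases (60.8%) and at 92 of the last 100, and ACTTCCT stood at the same place in both. Lyz1 had 1 match to TTGCNNAA and Lyz2 had 0. The Retnla window had 1 match to each of the 3 patterns, with no overlap among them. Of 32851 mouse promoter windows of this length, 7.69% held ACTTCCT, 9.56% TTGCNNAA and 5.85% TTCNNNNGAA. A match describes letters and is not evidence of binding.

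Levels are given as UMIs per 10000 UMIs summed over the cells of a gate or sample. Counting was from the 3′ end, so values were not divided by gene length. Lyz1 was 37.5 in the library A Retnla Lyz1 cells and 34.6 in the library B ones, and Lyz2 was 90.1 and 99.6. For every 100 Lyz2 UMIs there were 41.6 and 34.7 of Lyz1. Monocytes gated on Ly6c2 (at least 2 UMIs of Ly6c2 and of Lyz2) had more Lyz2, 131 and 147.1, and 0.569 and 0.671 Lyz1 UMIs per 100 of Lyz2. C1q macrophages (at least 4 C1q UMIs) had 3.86 and 3.39. How reads shared by the pair were counted is not given in the sources used here, and its part in these ratios was not tested. The rule chose cells on Lyz1 and the monocyte gate chose them on Lyz2, so a difference in ratio was partly built in.

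Other relatives of the rule and marker genes were low. Retn and Retnlb, of the same gene family as Retnla, had 0 UMIs in both libraries. Ear2, an eosinophil-associated ribonuclease, was at 11.4 and 10.2, while Ear6 and Ear10 had 0 UMIs and the eosinophil peroxidase gene Epx had 0. Ear1, a near copy of Ear2, had 0.0178 and 0, and reads shared by the copies may be split.

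The marker genes of the class were present in nearly all of its cells. Fn1, which encodes the matrix protein fibronectin, was found in 95.8% and 97.5% of the cells, Lpl, the lipase that frees fatty acids from lipoproteins, in 93.4% and 95.5%, and Ear2 in 86.1% and 84.7%. All 3 were found together in 131 of 166 cells (78.9%) and 127 of 157 (80.9%), and 1 cell per library had none. After thinning each cell to 1000 UMIs, which left out 9 and 7 cells, the share with all 3 was 51.0% and 36.0%. In C1q macrophages that share was 4.42% and 7.13% (2.23% and 2.32% thinned, 261 and 88 cells left out), in Ly6c2 monocytes 1.39% and 5.22%, and in Cd209a cells (at least 2 UMIs of Cd209a, a lectin of type 2 dendritic cells) 3.14% and 6.67%. The rule did not use Fn1, Lpl or Ear2, but these markers were proposed from the same cells, so no test is given.

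Ccr2, the receptor that draws monocytes from blood, was found in 89.8% and 88.5% of the Retnla Lyz1 cells, H2-Ab1 of MHC class II in 100% and 99.4%, and Cd74, its invariant chain, in 100% of both. Mrc1, the mannose receptor of tissue macrophages, was found in 62.7% and 82.8%, Itgam (CD11b) in 59.6% and 79.0%, Csf1r in 48.8% and 65.0% and Adgre1 (F4/80) in 34.9% and 46.5%. Defining genes of neighbouring classes were low: Ly6c2 was at 0.373 and 0.128, Plac8 at 0.373 and 0.609, Cd209a at 0.213 and 0.314, Fcgr1 (CD64) at 0.0711 and 0.0589, and Folr2, a marker of stromal macrophages, at 0 and 0.0295. The whole list of 9 stromal-type macrophage genes was at 10.9 and 10.6, against 9.98 and 72.6 in C1q macrophages. Mrc1 (3.87 and 4.66) and F13a1, a clotting factor subunit (6.64 and 5.41), made up most of it in the Retnla Lyz1 cells, while 4 of the 9 genes had 0 UMIs in library A. The list of 11 monocyte genes was at 14.0 and 13.3, against 71.6 and 85.6 in Ly6c2 monocytes. Flt3 of dendritic cells was at 0.0178 and 0.0196, and Zbtb46 likewise. The whole list of 8 type 2 dendritic cell genes, which holds Cd209a, Flt3 and Zbtb46, was at 5.29 and 6.45. It was at 20.6 and 22.4 in Cd209a cells, 6.65 and 14.4 in C1q macrophages and 4.39 and 6.67 in Ly6c2 monocytes. The Retnla Lyz1 cells thus carried general myeloid markers and part of the stromal macrophage, monocyte and type 2 dendritic cell lists. No narrower name is given.

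**Figure D1:**
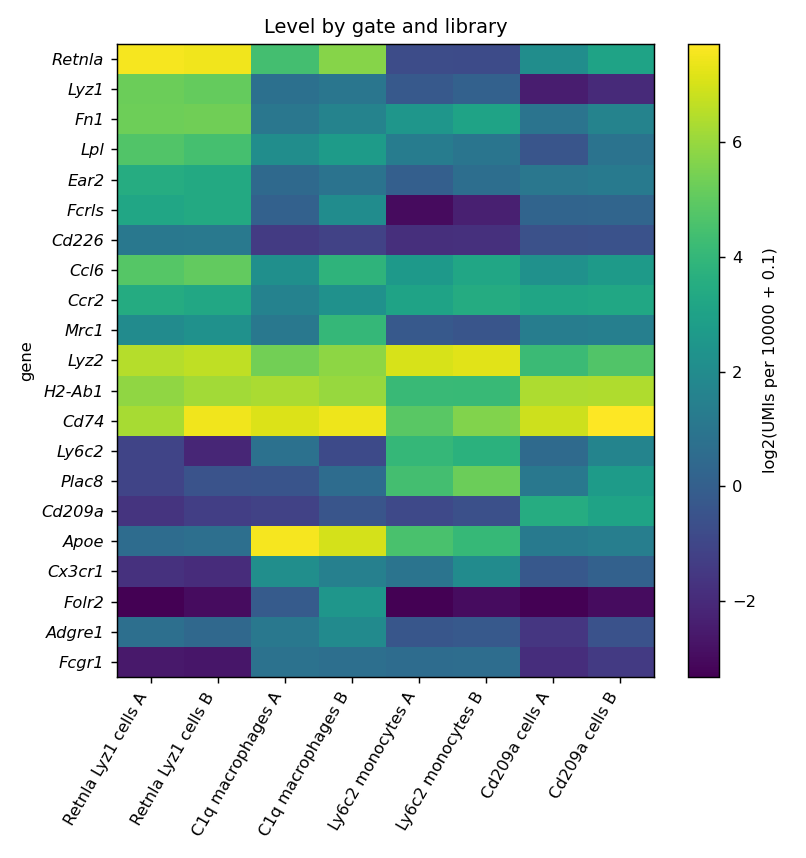
Level of 21 genes (rows) in the Retnla Lyz1 cells and 3 other myeloid gates in each library (columns), coloured by log2 of UMIs per 10000 plus 0.1, over all cells of a gate. Fn1, Lpl, Ear2, Fcrls and Ccl6 are brightest in the Retnla Lyz1 columns, Apoe in the C1q macrophages, Plac8 in the monocytes and Cd209a in its own gate.

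Lists of markers of other cells were summed in the Retnla Lyz1 cells. The neutrophil list was at 29.5 in library A and 0.3 in library B, and the library A value came to 99.4% from 1 cell without a tag. In the tagged samples that list lay between 0.1 and 0.5. The T cell list (4 genes, led by Cd2) was at 2.2 and 1.6, the eosinophil list at 0.1 in both with 4 of 5 genes at 0, and the stroma list at 0.2 and 0.4. The epithelial list was at 5.7 and 7.9, against 5.29 to 24.98 in the other gates.

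Not every cell had the transcripts of signalling adaptors that mark most myeloid cells. A gate on Fcer1g and Tyrobp (at least 2 UMIs together) with Lyz2, Cst3 and Ctss (at least 5) held 151 of 166 and 131 of 157 Retnla Lyz1 cells. The 15 and 26 outside it were shallow, with medians of 1324 and 2232 UMIs, and ribosomal protein genes made up a median of 5.18% and 4.91% of their UMIs, against 10.99% and 12.8% inside. They still carried Fn1 at 19.2 and 28.5, Lpl at 26.6 in library A and 28.5 in library B, and Lyz2 at 40.7 and 45.3. Of the 26, 15 were on HT2, and these had Cd36 at 13.1, Fabp4 at 13.1, Ly6c1 at 4.10 and Sparc at 3.59, genes of capillary endothelium chosen after values were seen, against 3.13, 3.82, 0.218 and 0.436 in the 35 HT2 cells inside the gate. Their part in the HT2 values was not tested.

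Cells just outside the limits were measured in the same way. Among cells that met every other limit, those with 0 Lyz1 UMIs (166 and 270) had Fn1 at 24.9 and 17.9, and those with 1 (32 and 29) at 28.0 and 30.7, against 38.2 and 40.3 in the Retnla Lyz1 cells and 28.2 and 26.6 in those with 2 Lyz1 UMIs. Lpl was at 21.7 and 13.6 with 0 Lyz1 UMIs and 30.3 and 17.4 with 1, against 25.9 and 21.6 in the Retnla Lyz1 cells. Ear2 was at 10.5 and 8.33 with 0 and 6.94 and 12.2 with 1, against 11.4 and 10.2. Cells with 4 to 9 C1q UMIs (25 and 35) had Fn1 at 33.3 and 26.9. Those with 10 or more (25 and 61) had Fn1 at 14.2 and 21.4. Cells that had Lyz1 but 0 Retnla UMIs were few, 21 and 15, with Fn1 at 8.91 and 8.13 and Lpl at 4.57 and 9.70. Those with 1 Retnla UMI were 1 and 6, with Fn1 at 20.7 and 6.31. Cells failing for a T, B, Xcr1 or Clec9a UMI numbered 64 and 92, and 43.8% and 22.8% of them were doublet calls.

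**Figure D2:**
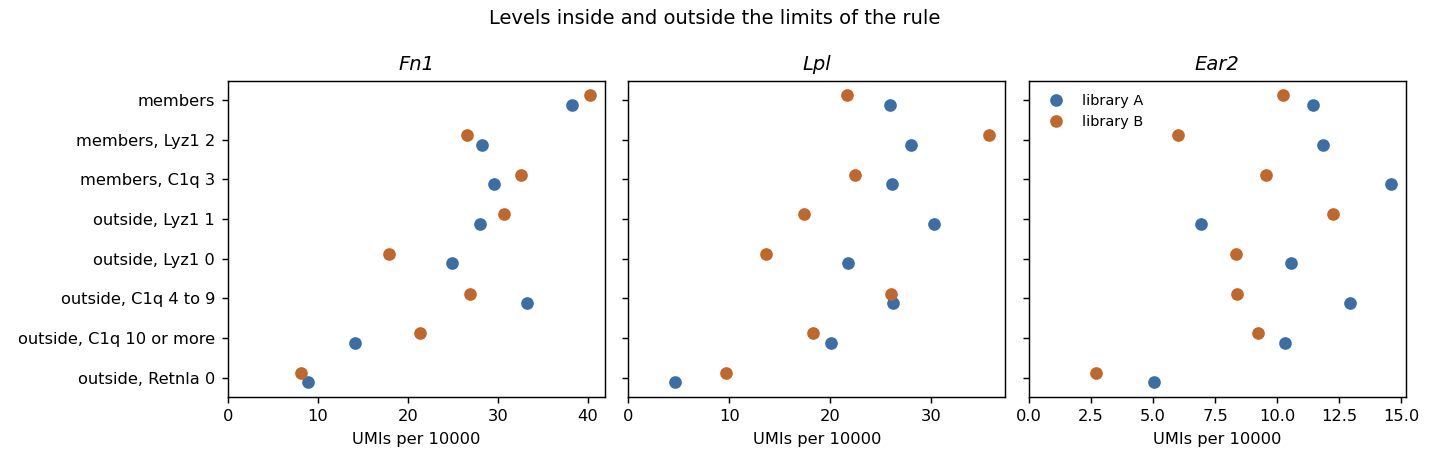
Fn1, Lpl and Ear2 in UMIs per 10000 (horizontal axes) for the Retnla Lyz1 cells, for those at a limit of the rule and for cells just outside it, by library. Of the sets plotted, cells with 0 Retnla UMIs have the lowest Fn1 (8.91 and 8.13). For Fn1 alone, cells with 0 or 1 Lyz1 UMIs lie between them and the Retnla Lyz1 cells in both libraries. Cells with 1 Lyz1 UMI lie above the Retnla Lyz1 cells for Lpl in library A and for Ear2 in library B.

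Cells with more Retnla also had more Fn1. When the Retnla Lyz1 cells of a library were split in 3 by the share of Retnla among their UMIs, Fn1 was 25.3, 38.1 and 50.7 in library A and 32.2, 39.4 and 46.3 in library B, from the lowest to the highest. Lyz2 went from 62.3 to 112 and from 74.5 to 117. Ear2 went from 9.42 to 14.8 and from 7.54 to 12.7. Lpl had no such order, at 19.4, 32.8 and 25.5 in library A and 26.1, 21.5 and 18.9 in library B. These sets also differed in depth, in library A with medians of 2396.5, 3193 and 3806 UMIs, and in library B, with 3460, 4914 and 7285, and cells of 1 library are not replicates, so these are descriptions.

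The Retnla Lyz1 cells were next set beside the mean of the other gates in the 5 samples with at least 20 cells (library A Nulliparous, Lactation and HT2, library B Involution and HT2). Ly6c2 monocytes reached 20 cells in 3 of these. Of 1506 genes with at least 1 UMI per 10000 on either side, 36 (2.39%) were at least 2-fold higher and 40 (2.66%) at least 2-fold lower in each of the 5, on log2 values with 0.1 added. No test is given, since the gates were set on their own genes.

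Fn1 led the higher genes. It was at 29.9, 31.7 and 52.4 in the library A Nulliparous, Lactation and HT2 samples and at 31.3 and 46.6 in library B Involution and HT2, against gate means of 3.43, 1.498, 6.39, 3.17 and 5.25. The log2 ratio ran from 3.02 to 4.32. The highest Fn1 in a single other gate was in Ly6c2 monocytes in library A Nulliparous (7.66), Involution (5.53) and library B HT2 (7.35), and in C1q macrophages in library A Lactation (1.59) and library A HT2 (10.15). Lpl was at 25.2, 30.5, 22.4, 20.6 and 25.6 in the same order, against 1.73, 3.74, 3.73, 2.31 and 4.37, with C1q macrophages the highest of the other gates, at 3.92 to 9.46 in these samples. Ear2 had log2 ratios from 1.75 to 3.33. No sample of the Retnla Lyz1 cells overlapped a gate mean for these 3 genes.

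Surface and signalling genes followed. Fcrls, an Fc receptor-like protein, was at 9.01, 9.83, 10.8, 10.4 and 10.4 against 0.742, 1.21, 2.34, 1.64 and 2.01, and 90.4% and 94.3% of the cells had it. Cd226, an adhesion receptor better known from T and NK cells, had log2 ratios of 1.62 to 2.44 and was found in 48.2% and 62.4% of the cells. Cd2, also a lymphocyte adhesion molecule, had 2.19 to 3.08 and was found in 38.0% and 43.3%, with no more than 5.26% of its UMIs in 1 cell. T cells were at 1.76 and 2.09 for Cd226, beside 2.04 and 2.08 in the Retnla Lyz1 cells, whose rule leaves out any cell with a Cd3 UMI. Plxnd1, a semaphorin receptor, had 1.60 to 1.99, and Socs6, of the suppressors of cytokine signalling, 2.08 to 2.89.

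Aldh1a2 makes retinoic acid from vitamin A aldehyde. It had log2 ratios of 2.04 to 4.09 and was found in 29.5% and 56.7% of the cells, against 1.39% and 5.04% of C1q macrophages. Ecm1, a matrix protein, had 1.89 to 2.70, Lmna, of the nuclear lamina, 1.69 to 3.08, and Id2, an inhibitor of transcription factors, 1.51 to 2.56. Rem1, a small GTPase, and the membrane protein gene Tmem154 had ratios of at least 1.97 and 1.96. The chemokine gene Ccl6 was at 29.5, 31.1, 28.6, 25.7 and 34.5 against 4.10, 6.19, 9.20, 8.15 and 12.1, and Ccl9 had ratios of 1.19 to 1.87.

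Macrophage and monocyte genes were among the lower ones. Apoe, the lipid-carrying apolipoprotein, was at 1.09, 2.46, 0.672, 2.43 and 1.02 against gate means of 60.03, 124, 47.8, 54.3 and 35.7. Its log2 ratio was at most -4.42. The list of 7 ductal-type macrophage genes, which holds Apoe, was at 3.06 and 3.35 in the Retnla Lyz1 cells of library A and library B. It was at 206 and 138 in C1q macrophages, 27.0 and 23.4 in Ly6c2 monocytes, and 5.07 and 6.66 in Cd209a cells. Low Apoe was thus shared with Cd209a cells. Plac8, a gene of blood monocytes, had a log2 ratio of at most -3.22. Cd209a was at most -2.57, and it defines one of the other gates, so its value restates how that gate was drawn. Aif1 (IBA1), common to macrophages, had 0.409, 0.521, 0.244, 0.192 and 0.255 against 4.11, 4.52, 1.91, 3.44 and 3.36. Irf8, a transcription factor of monocytes and dendritic cells, had -2.55 at most, and Selenop, which carries selenium, -2.26. Ly6e, Ms4a7, Ms4a6b and Zfp36l1 were also among the lowest, each with a log2 ratio of at most -2.34 in the 5 samples.

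By function, matrix and clotting genes had 2 higher (Fn1 and Ecm1) and none lower among the 6 of 11 members that reached the level, with a median log2 ratio of 0.95 against 0.05 over all 1506 genes. The other lists are also counted over members at that level. Lipid handling had 1 of 6 higher (Lpl) and none lower, median 0.32. MHC class II had 0 of 7 on either side, median 0.06. Cytokines and chemokines had 2 of 8 higher (Ccl6, Ccl9) and 2 lower, Cxcl16 and Il1b, median -0.77. Of the alternative activation list, 5 genes other than Retnla reached the level, 0 were higher and 1, Chil3, was lower. Arg1, which alternatively activated macrophages are known for, was at 0.0178 and 0.00982 in the Retnla Lyz1 cells, Ccl17 had 0 UMIs and Ccl24 was at 0.355 and 0.530. Lysosome genes had 1 of 6 lower (Lgmn) and growth factor receptors 0 of 3.

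The next question was how common the cells were at each stage. In library A they were 23 of 5887 Nulliparous cells (0.391%, exact binomial 95% interval 0.248 to 0.586), 11 of 4618 Gestation cells (0.238%, 0.119 to 0.426), 43 of 2548 Lactation cells (1.69%, 1.22 to 2.27) and 49 of 2930 HT2 cells (1.67%, 1.24 to 2.21). In library B they were 9 of 3420 in Gestation (0.263%, 0.1204 to 0.499) and 10 of 795 in Lactation (1.26%, 0.605 to 2.30). Intervals cover counting error only. Lactation lay above Gestation in both libraries, and these intervals did not overlap. In library B they did overlap under 7 of 10 other settings of tag calling, depth, rule or denominator, and in library A under 0 of 10.

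Other library B names lay between these stages, apart from HT2. Involution had 23 of 2260 (1.02%, 0.646 to 1.52) and Balb/c 13 of 2016 (0.645%, 0.344 to 1.10). Regression had 14 of 2481 (0.564%, 0.309 to 0.945) and GF 11 of 2177 (0.505%, 0.252 to 0.902). The intervals of these 4 overlapped one another and that of Lactation. Those of Balb/c, Regression and GF also overlapped that of Gestation (0.1204 to 0.499), and that of Involution did not. HT2 was highest over all cells, with 50 of 1832 (2.73%, 2.03 to 3.58), but not over the myeloid gate, as given below. Names other than Gestation and Lactation have 1 sample, or, for HT2, an unsettled name, so there is no test.

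The Lactation share was 7.08-fold the Gestation share in library A and 4.78-fold in library B, a mean log2 difference of 2.54 (5.82-fold). An exact two-sided permutation test (6 arrangements) gave p = 0.333, the smallest this design allows, and swaps within a library gave 0.5, also the smallest. The fold was 3.56 with tags called at a quantile of 0.95, where the library B Lactation share was 0.498% and its fold 1.89. It was 3.16 when a tag needed 70% of a cell's tag counts (2 cells, 0.585%, a library B fold of 1.74), and 3.17 over the myeloid gate (2.03 in library B). Lactation cells were deeper than Gestation cells in library A (medians of 2071.5 and 1212 UMIs), and at 1000 UMIs per cell the fold was 5.62, leaving out 9.42% of Lactation and 32.0% of Gestation cells in library A and 1.51% and 1.40% in library B. Lymphocytes that met the Retnla, Lyz1 and C1q limits were few. In library A they were 1 of 1679 in Gestation (0.0596%) and 5 of 1070 in Lactation (0.467%). In library B they were 2 of 2671 (0.0749%) and 1 of 525 (0.190%). Exact binomial intervals of the stages overlapped in both libraries, so these counts cannot show whether such lymphocytes moved with the share. On HT2 they were 7 of 781 (0.896%) in library A and 4 of 404 (0.9901%) in library B. Their part in the difference was not tested.

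Over the myeloid gate the cells were 1.51% of Gestation and 7.47% of Lactation in library A and 3.86% and 7.83% in library B. The library B intervals, 1.78 to 7.21 and 3.64 to 14.3, overlapped. HT2 of library B was at 35 of 630 (5.56%, 3.90 to 7.64), below Lactation, and HT2 of library A at 7.12%. The other names were between 3.596% and 4.47%. By point value, all 3 neighbouring gates were also larger shares of all cells in Lactation than in Gestation in both libraries. Exact binomial intervals of the stages overlapped for Ly6c2 monocytes in both libraries, C1q macrophages in library A and Cd209a cells in library B. They did not overlap for C1q macrophages in library B or Cd209a cells in library A. Library B Lactation held 7 Ly6c2 monocytes and 5 Cd209a cells. C1q macrophages were 9.53% and 10.3% of library A Gestation and Lactation and 2.75% and 6.29% in library B. Ly6c2 monocytes were 0.390% and 0.628% in library A and 0.556% and 0.881% in library B, and Cd209a cells were 0.346% and 0.903% in library A and 0.468% and 0.629% in library B. Whether the share of Retnla Lyz1 cells differed by more than these was not tested.

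**Figure D3:**
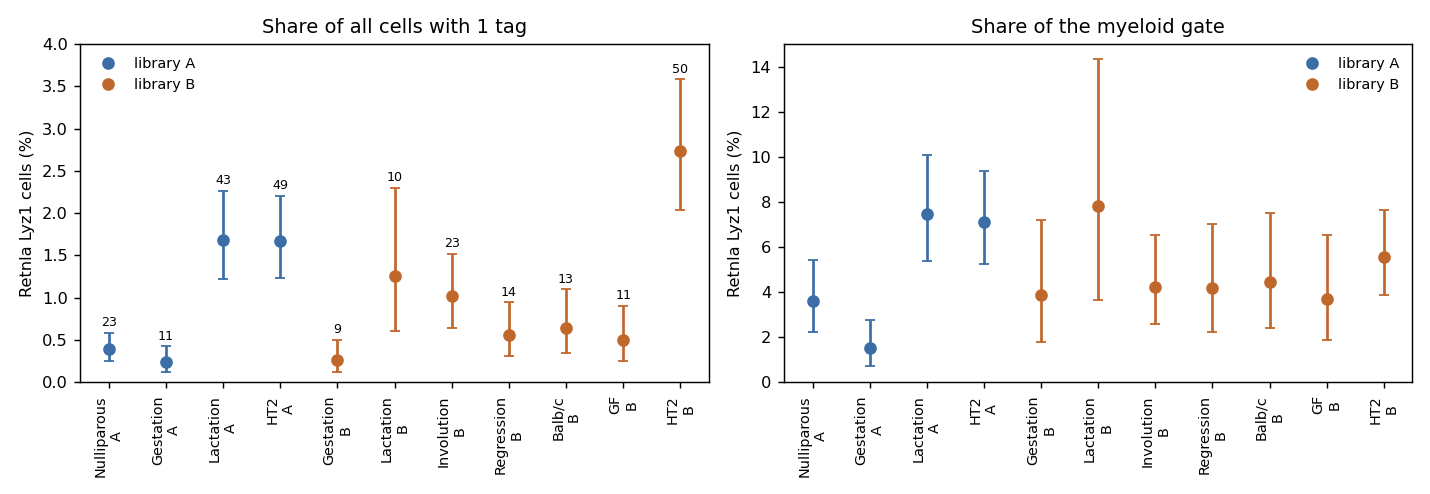
Retnla Lyz1 cells as a percentage of all cells with 1 tag (left) and of the myeloid gate (right) in each tagged sample, with exact binomial 95% intervals; numbers give the cells counted. On the left the Lactation points (1.69% and 1.26%) lie above the Gestation points (0.238% and 0.263%) of the same library, and the library B HT2 point is highest.

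The marker genes were then followed by sample. Over all 11 tagged samples Fn1 ran from 26.6 (library B Lactation) to 53.2 (GF), Lpl from 15.3 (Regression) to 31.4 (library A Gestation) and Ear2 from 9.08 (library B HT2) to 15.5 (library B Lactation). The sum of the 3 had a median of 79.2 and a range of 59.4 to 85.0. Fcrls ran from 8.71 to 13.4. Retnla was highest in GF, at 308, then HT2 of library A (245) and Regression (242), and lowest in library B HT2 (152) and Involution (154). Lyz1 was highest in Balb/c, at 68.2, and lowest in Involution, at 18.8.

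MHC class II levels, as a share of all UMIs, differed by library. The gene entry CT010467.1 held 19.6% of the UMIs of all library A barcodes and 5.86% in library B, and the totals include it. Its part in the difference was not tested. H2-Ab1 was between 63.3 and 64.3 in the 4 samples of library A, and between 66.6 and 84.7 in library B apart from Balb/c, at 44.2 (counting interval 40.3 to 48.4). Cd74, the class II invariant chain, was at 119 in Balb/c and 170.5 to 203 in the other library B samples. Ccl6 was highest in Balb/c too, at 45.2 against 25.7 to 37.5 in the rest. These are single samples, and strain cannot be told apart from the sample. Cells with at least 2 of the proliferation genes Mki67, Top2a, Birc5 and Cdk1 were 12 in each library (7.23% and 7.64%), beside 4.60% and 7.53% of C1q macrophages, 0.694% and 1.20% of Ly6c2 monocytes and 8.18% and 8.10% of Cd209a cells. Median depths of the 4 gates ran from 2102 to 3250.5 UMIs in library A and from 4350 to 6179 in library B, and cells were not thinned for these shares.

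**Figure D4:**
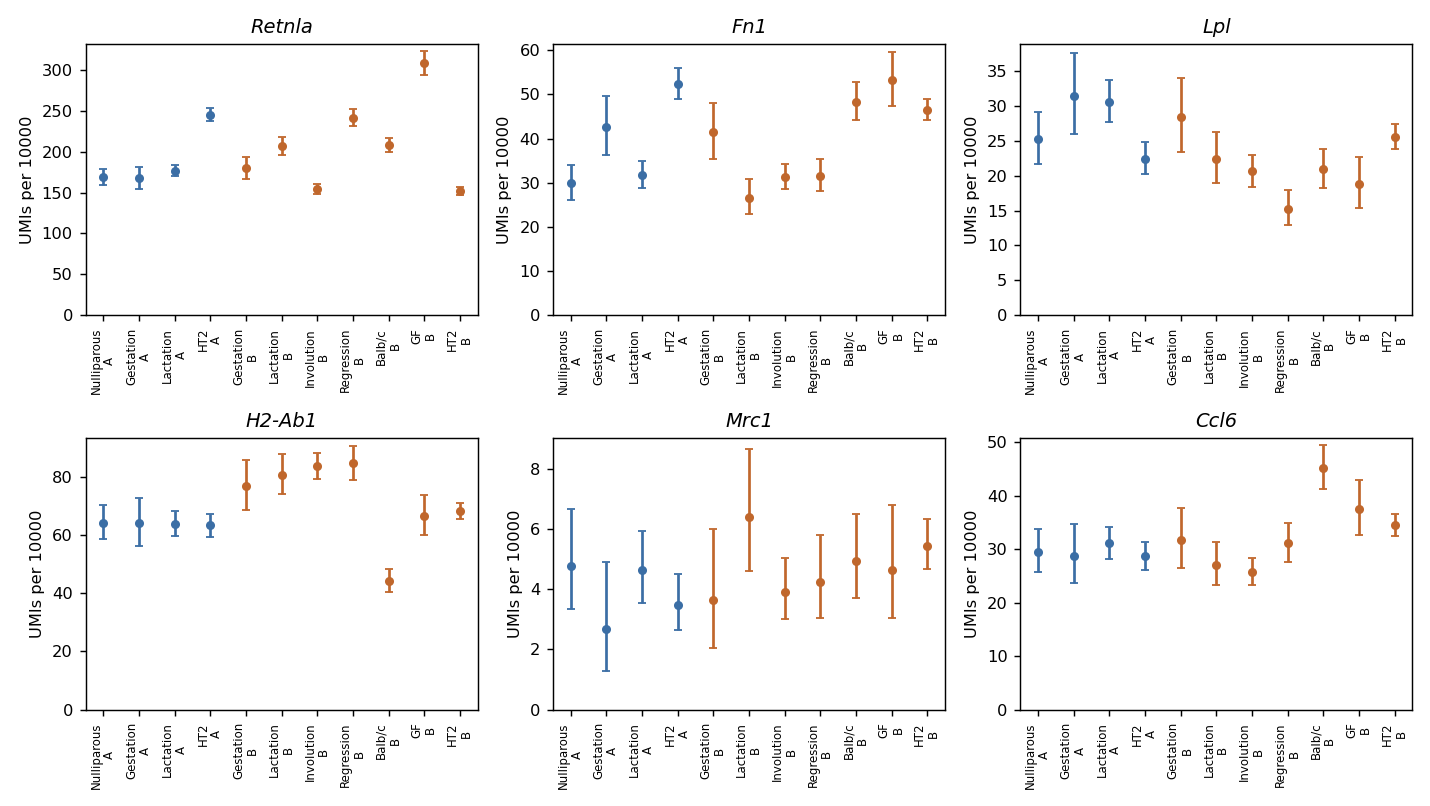
UMIs per 10000 of 6 genes in the Retnla Lyz1 cells of each tagged sample, with Poisson 95% intervals for counting error. Retnla and Fn1 are highest in GF (308 and 53.2), H2-Ab1 is lowest in Balb/c (44.2) and Mrc1 intervals overlap broadly.

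Genes within the cells were compared between Lactation and Gestation on summed counts of 43 and 11 cells in library A and 10 and 9 in library B. A minimum of 10 cells per sample had been set, so this fit was added after the cell numbers were seen. With edgeR's quasi-likelihood test and library year as a term, 6 of 735 genes (0.816%) were called at an adjusted p of 0.05, with 2 (0.272%) higher and 4 lower in Lactation, and 48 had an unadjusted p under 0.05. With library totals in place of TMM scaling 0 genes passed (38 at an unadjusted p under 0.05), and 3 passed when library B Gestation and the year term were both left out, against 18 without library A Gestation and the year term. Fits that leave out a sample, here and below, have no year term, so the sample and the term cannot be told apart; without the term alone 9 passed. DESeq2 called 3. The number of animals is not given, so p-values do not measure the spread between animals. The fit had 1 residual degree of freedom beside a prior of 27.71. Its p-values thus rest mostly on a variance shared across genes, and little on the spread of a gene between these samples.

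Ifi27l2a, an interferon-induced gene, was the clearest. It was at 12.5 and 12.4 in the Gestation samples of library A and library B (47 and 51 UMIs) and at 38.5 and 44.1 in the Lactation samples (517 and 290 UMIs), so that the stages did not overlap. The log2 fold change was 1.74 (SE 0.23, edgeR adjusted p 1.68e-05). With the top cell left out, which held 38.6% of the UMIs in library B Lactation, the levels were 11.02 and 11.9 in Gestation and 36.0 and 32.2 in Lactation. The call was lost with library totals (adjusted p 0.0628) and without library B Gestation (0.0684). In the other tagged samples of the Retnla Lyz1 cells it was between 8.27 (Balb/c) and 20.4 (Involution). Ifi27l2a (chr12:103433873-103443680) has a near copy, Ifi27l2b, so its counts may be split.

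Other gates are set beside it, with no test. C1q macrophages had Ifi27l2a at 5.27 and 10.5 in Gestation and 18.4 and 23.7 in Lactation, and Ly6c2 monocytes at 31.1 and 28.2 against 48.5 and 34.9. Cd209a cells had 10.8 against 18.5 in library A and 11.4 against 9.55 in library B. The library B Lactation values rest on 7 Ly6c2 monocytes and 5 Cd209a cells. In the other Gestation and Lactation samples these 2 gates held 16 to 23 cells each. The other 9 genes of the interferon list, such as Isg15 and Ifit3, summed to 0.533 in library A Gestation and 8.79 in library A Lactation, and to 1.70 and 1.98 in library B. Of the 43 cells of library A Lactation 15 held at least 2 of these genes, as did 0 of the 11 of library A Gestation, 3 of the 10 of library B Lactation and 17 of the 50 of library B HT2.

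**Figure D5:**
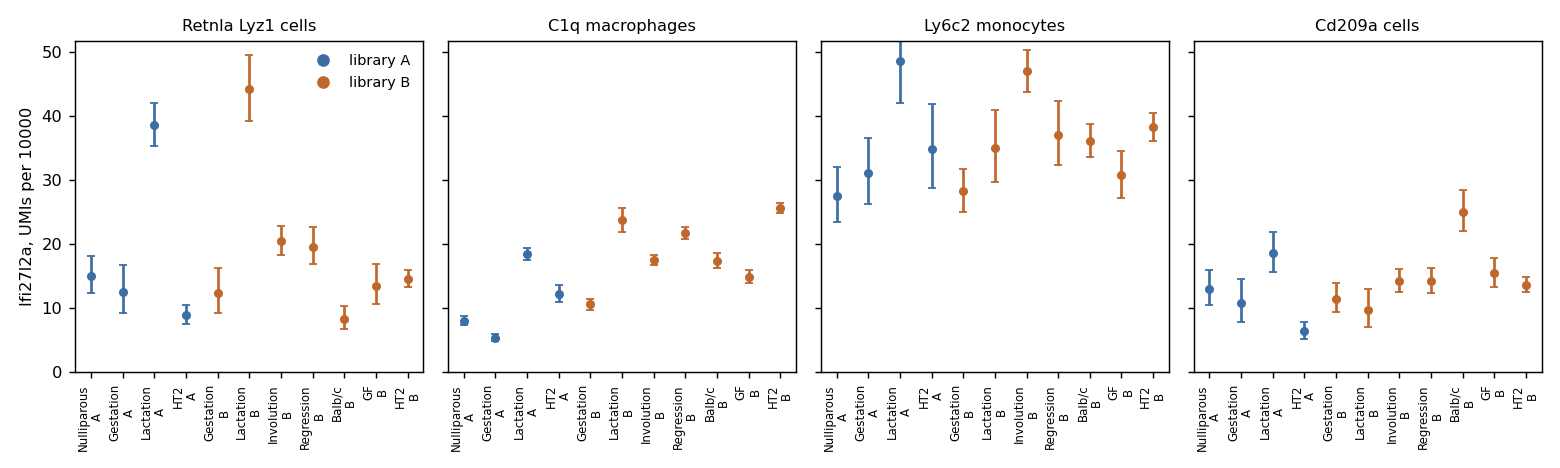
Ifi27l2a in UMIs per 10000 in 4 myeloid gates by tagged sample, with Poisson 95% intervals. In the Retnla Lyz1 cells both Lactation samples (38.5 and 44.1) lie above the other 9, which reach 20.4.

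The other calls were less steady. Tubb5, a tubulin of dividing cells, was at 2.93 and 2.18 in Gestation and 5.14 and 14.6 in Lactation (log2 1.87, SE 0.43, edgeR adjusted p 0.0209), with 49.0% of the library B Lactation UMIs in 1 cell, and it was lost without either library B sample (0.633 and 0.9987). The immediate early genes Junb and Dusp1 were lower in Lactation. In Gestation of library A and library B, 1 cell held 41.2% and 37.8% of the Junb UMIs and 36.7% and 73.2% of the Dusp1 UMIs. In Lactation 1 cell held 11.1% and 37.0% for Junb and 11.4% and 63.6% for Dusp1. Junb was at 4.53 and 19.9 in Gestation and 2.68 and 4.11 in Lactation (log2 -1.61, SE 0.37, edgeR adjusted p 0.0205). The lower Gestation level (4.53) lay just above the higher Lactation level (4.11), and the log2 value was -0.62 (adjusted p 0.959) without library B Gestation. The call was also lost without library A Lactation (0.0635). Dusp1 was at 7.99 and 9.93 against 2.61 and 1.67 (log2 -2.00, SE 0.40, edgeR adjusted p 0.00440) and passed no longer without library B Lactation (0.115).

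Cxcl2, which draws neutrophils, and Ccl5 were called lower from single cells. Cxcl2 had 26 UMIs in library A Gestation, 100% of them in 1 cell, and 47 in library B Gestation, 93.6% in 1 cell, against 13 and 0 in Lactation (log2 -3.82, SE 0.55, edgeR adjusted p 4.03e-05). Ccl5 had 31 and 46 in Gestation, 93.5% and 97.8% in 1 cell, against 29 and 4 (log2 -2.68, SE 0.44, edgeR adjusted p 0.000389).

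Most of what sets the cells apart gave no call between the stages. Fn1 was at 42.6 and 41.4 in Gestation and 31.7 and 26.6 in Lactation (log2 -0.52, SE 0.20, edgeR adjusted p 0.460). Ear2 was at 10.9 and 9.45 against 15.3 and 15.5 (log2 0.60, SE 0.25, edgeR adjusted p 0.537), and Mrc1 at 2.66 and 3.63 against 4.62 and 6.39 (log2 0.82, SE 0.42, edgeR adjusted p 0.7002). Each of these differed in the same direction in both libraries. Lpl had a log2 fold change of -0.17, Fcrls -0.01, Ccl6 -0.04, H2-Ab1 0.04 and Ccr2 0.10. Of all genes tested 24.4% were higher in Lactation in both libraries and 24.5% were lower in both. By list, MHC class II had 0 of 6 called and a median of 0.05, lipid handling 0 of 5 and -0.17, matrix and clotting 0 of 6 and 0.22, lysosome 0 of 5 and 0.05, and myeloid genes 0 of 10 and 0.24, against 0.01 over all genes. Cytokines had 1 of 4 lower (Cxcl2), interferon 1 of 1 higher (Ifi27l2a) and cell cycle 1 of 1 higher (Tubb5). On simulated counts of this comparison with 781 genes tested, 77.9% of 4-fold changes were recovered, and 10 of 586 unchanged genes were called. The simulation gave every gene the same spread, with no library difference and no gene held mostly by 1 cell. These shares therefore need not hold for the real counts.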

How the data were processed

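Transcripts and hash tags of single cells were counted in 2 pooled 10x libraries (3′ v3.1 kit, per the labels). The authors deposited unnormalized UMI counts for each gene, and tag counts, by barcode. Cell Ranger 6.1.0 and genome build mm10 are named in the submitters' processing notes, while the header of the library A gene matrix names Cell Ranger 4. The library A matrix holds 1347735 barcodes and the library B matrix 21632; 55253 of 55487 gene entries were matched by symbol. Kept cells held 50906081 and 90109576 UMIs.

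From these counts, tags were called with HTODemux (Seurat 5.3.0, quantile 0.99), doublets with Scrublet (scanpy 1.11.5, expected rate 0.08; calls were kept in the class), and shares were given exact binomial 95% intervals. Levels are summed UMIs per 10000 with Poisson intervals. Samples were taken from the tag sheets; 0 columns lay outside the series. Lactation was compared with Gestation by an exact permutation test of log2 shares and by edgeR 4.0.16 (TMM, filterByExpr, library year, 1 residual degree of freedom, Benjamini-Hochberg adjustment over all genes tested, threshold 0.05). The edgeR step was tested on simulated data. The members and the 28 gene lists were chosen with earlier results of these data known. Genes were named as all members of the lists that carry a result, all called genes, and the 15 highest and 10 lowest by the smallest log2 ratio to the gates; capillary genes, Retnla splits and the proliferation genes were added after values were seen. Alternatives covered tag calling, thinning, doublets, the limits of the rule, scaling, filters, DESeq2 1.42.0 and leaving out samples.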

Additional observations from a re-analysis of the deposited data

Results flagged for a closer look

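Retnla Lyz1 cells also lay among cells that enter no sample. In library A 23 of them carried more than 1 tag and 17 carried none, and in library B 22 and 5. As shares of the cells with that tag status, these were 0.787% (exact binomial 95% interval 0.4998 to 1.18) and 0.630% (0.367 to 1.01) in library A and 0.541% (0.340 to 0.819) and 0.234% (0.0762 to 0.546) in library B. Cells with 1 tag had 0.788% and 0.868%. They are pointed out because they enter no comparison between tagged samples and number above 3. The levels, co-detection and list sums given for a whole library include them.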

How the results depend on the processing

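The Lactation share of Retnla Lyz1 cells stayed above the Gestation share under all 17 alternatives, with folds from 3.16 to 7.15, and the permutation p could not pass 0.05 under any of them. Leaving out each sample in turn gave folds of 5.02 to 6.74 (log2 2.33 to 2.75). Library A alone gave 7.08 and library B alone, whose Lactation tag was weak, 4.78. The count of genes called between the stages was 6 in the fit reported and varied with the setting, and the cause was not tested: DESeq2 gave 3 (11 at an unadjusted p under 0.05), library totals 0, and median-of-ratios size factors 11. Leaving out each sample in turn and the year term with it gave 3 to 18. Without the year term alone it was 9 with all 6 genes shared, without the low-count filter 8, and with doublet calls removed 8, of which 5 were shared. Ifi27l2a passed in 10 of 12 alternative fits, with log2 values of 1.55 to 1.95 and adjusted p from 9.96e-11 to 0.0684, Dusp1 in 10, Cxcl2 in 10, Ccl5 in 9 of 10, Junb in 8 and Tubb5 in 7. With the gene entry CT010467.1 left out of the totals 42 genes were higher and 48 lower than the other gates, and with doublet calls removed 36 and 42. The fit reported is paired by library, in which each stage has 1 sample, through the year term; the count without it is given above, and swaps within a library gave a p of 0.5 for the share. Samples of 9 to 11 cells limit the gene comparison, and depth limits shares of cells with a UMI.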
